A study of Mus musculus with 6 samples.

Results

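The genes described here are 6 glutathione transferases (Gsta3, Gsta4, Gstm1, Gstm2, Gstp1 and Gsto1) and 4 glutathione peroxidases (Gpx1, Gpx2, Gpx3 and Gpx4), named as a list and matched by symbol in a table of 24498 mouse genes. All 10 symbols were found, and all 10 were among the 13846 genes with enough counts to be tested. The libraries came from prostate epithelial cells of male mice sorted for a fluorescent lineage marker. In the Nkx groups the marker was EYFP, switched on by CreER(T2), a drug-inducible recombinase. In the Clu group it was tdTomato, switched on by Clu-CreER(T2). Both reporters sit at the ROSA26 locus. The Nkx intact and Clu intact mice kept their testes, and the Nkx castrate mice lost them at an age of 8 weeks. All prostates were collected 4 weeks after that point. Each group held 2 libraries, and a castrated Clu group was not analysed here. The Clu and Nkx groups differ in recombinase line, reporter and cells marked at once, and these cannot be told apart. Clu intact and Nkx castrate differ in castration as well. Since the labels do not tie the libraries of a group to separate animals, p-values describe only how far these libraries spread, and that spread may be technical. A marker made by recombination also stays on in the daughters of a marked cell, and the time of induction is not given in the sources used here.

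Glutathione is a small thiol peptide that cells hold at high concentration. Glutathione transferases couple it to electrophiles such as lipid aldehydes and xenobiotics, and fall into classes named by Greek letters (alpha, mu, pi and omega among these genes). Glutathione peroxidases spend it to reduce hydrogen peroxide and lipid hydroperoxides, and Gpx1 to Gpx4 carry selenocysteine at the active site. The oxidised glutathione is then returned to its reduced form by glutathione reductase. Many of these genes are known targets of NRF2, a transcription factor that binds the antioxidant response element.

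Of the 10 genes, 9 had at least 1 promoter window in the RefSeq table for GRCm38.p6, an earlier build than the authors' GRCm39. Gsta4 had none and was not searched. The 250 bases before the start are shown for Gsta3 and Gpx3, which had the largest castration differences in opposite directions. Capitals mark the antioxidant response element core TGACNNNGC, searched on both strands. Gsta3 (chr1:21240335-21240584, plus strand) and Gpx3 (chr11:54902604-54902853, plus strand) read, 5′ to 3′:
Gsta3: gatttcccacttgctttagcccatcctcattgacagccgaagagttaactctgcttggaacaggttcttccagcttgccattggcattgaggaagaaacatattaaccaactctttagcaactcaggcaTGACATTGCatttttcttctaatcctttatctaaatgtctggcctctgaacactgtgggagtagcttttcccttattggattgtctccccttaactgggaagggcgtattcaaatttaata
Gpx3: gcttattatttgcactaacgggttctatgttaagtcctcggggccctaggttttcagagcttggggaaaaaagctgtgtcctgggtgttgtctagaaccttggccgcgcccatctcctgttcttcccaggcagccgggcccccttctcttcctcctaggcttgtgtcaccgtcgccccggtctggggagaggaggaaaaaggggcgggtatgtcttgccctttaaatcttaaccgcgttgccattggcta
Gsta3 was the one gene with a match among the 9, which had 13 windows in all. The match, TGACATTGC, ended 112 bases before the start. Of all 32851 windows of this length in the table, 10.2% held a match. The palindromic androgen response element, searched on both strands, matched none of the 13 windows and 0.00913% of all windows. A match is a run of letters in the window and was not tested for function.

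Depth lay between 10220118 and 17412874 counts per library. Values are CPM (each count divided by the scaled library total), with totals scaled by the trimmed mean of M-values (TMM), and 1 count was worth 0.0561 to 0.0988 CPM. Clu RNA was highest in Clu intact (1808 and 1934 CPM) and lowest in Nkx intact (323 and 245 CPM). The library Nkx castrate 1 stood apart, with summed leukocyte markers of 685 CPM (62.3 to 282 CPM elsewhere, 19 genes) and summed fibroblast and smooth muscle markers of 2849 CPM (718 to 1392 CPM elsewhere, 18 genes). The 15 basal epithelial markers summed to 3312 to 5623 CPM, and none of the 8 lists of cell type markers had a gene at 0 in all libraries.

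A gene was called where its Benjamini-Hochberg adjusted p over all tested genes, from the edgeR quasi-likelihood test, was under 0.05. Of the 10 genes, 3 were called between Nkx castrate and Nkx intact, where 8.61% of all tested genes were. Between Clu intact and Nkx intact 4 were called (11.3% of all tested genes), and between Clu intact and Nkx castrate 4 (16.9%).

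**Figure D1:**
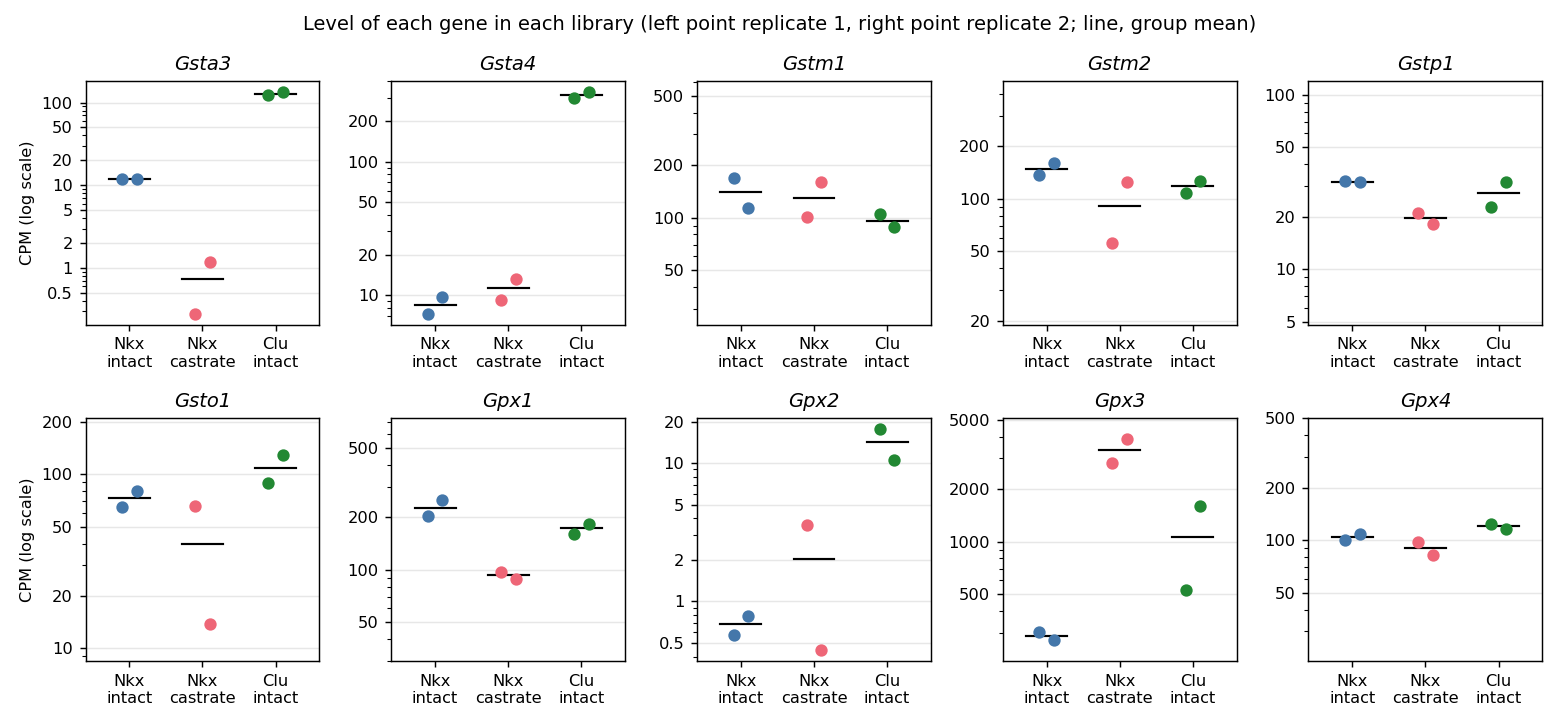
CPM of each of the 10 genes in the 6 libraries on logarithmic axes, with a line at each group mean. Gsta3 and Gsta4 are highest in both Clu intact libraries, and Gpx3 is highest in both Nkx castrate libraries. The values of Gstm1, Gstp1 and Gpx4 span less than 2.0-fold.

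The alpha-class transferases Gsta3 and Gsta4 were far higher in Clu intact than in either Nkx group, and Gsta3 also fell with castration. Gsta3, an isoform known for conjugating epoxides, was at 11.8 and 11.95 CPM in the Nkx intact pair, 0.281 and 1.18 CPM after castration, and 123 and 134 CPM in the Clu pair. No 2 groups overlapped, and the order was Clu intact, Nkx intact, Nkx castrate. The castrate values rest on 5 and 16 counts. Gsta3 fell 16.9-fold with castration (log2 fold change -4.08, SE 0.49; edgeR quasi-likelihood test, Benjamini-Hochberg adjusted p = 0.00285). It was 10.8-fold higher in Clu intact than in Nkx intact (log2 fold change 3.44, SE 0.36; edgeR adjusted p = 0.00193) and 183-fold higher than in Nkx castrate (7.52, SE 0.48; edgeR adjusted p = 0.000209). Without Nkx castrate 1 the log2 difference was -3.31 from Nkx intact and 6.75 to Clu intact, and without Nkx castrate 2 it was -5.36 and 8.80. In bulk RNA, fewer cells of a type and less RNA per cell cannot be told apart.

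Gsta4, an isoform known for detoxifying the lipid aldehyde 4-hydroxynonenal, was at 7.27 and 9.68 CPM in the Nkx intact pair, 9.26 and 13.3 CPM after castration, and 298 and 331 CPM in the Clu pair. Both Nkx groups overlapped each other and lay far below both Clu libraries. The difference between Clu intact and Nkx intact was 37.1-fold (log2 5.21, SE 0.24; edgeR quasi-likelihood, adjusted p = 0.000199), and that between Clu intact and Nkx castrate 27.9-fold (log2 4.80, SE 0.23; edgeR adjusted p = 0.000147). With castration the log2 fold change was 0.41 with a 95% interval from -0.16 to 0.97 (edgeR adjusted p = 0.366). Whether Gsta3 and Gsta4 differed in their castration response was not tested. Both calls against Nkx castrate and both against Nkx intact held in each fit that left out 1 library, with log2 values for Gsta4 between 4.56 and 5.44.

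Gsta3 and Gsta4 shared little identical sequence with other genes. Of 4389 windows of 50 bases in the Gsta3 transcripts of GENCODE M21, 0.273% occurred in a transcript of another gene and 0 in Gsta1, Gsta2 or Gsta4. For Gsta4, 0 of 1217 windows were shared. Gsta1 had 2 counts in all libraries together, Gsta2 had between 0 and 38 counts per library, and Gsta5 had none. With the 5 Gsta genes summed, the level was 19.0 and 22.03 CPM in the Nkx intact pair, 10.1 and 17.3 CPM after castration, and 422 and 465 CPM in the Clu pair. The summed class was not called with castration (log2 fold change -0.59; edgeR quasi-likelihood, adjusted p = 0.224). Gsta3 made up 61.8% and 54.3% of Gsta counts in the Nkx intact pair (Wilson 95% intervals 54.9 to 68.3% and 47.7 to 60.7%) and 2.78% and 6.84% after castration (1.19 to 6.34% and 4.25 to 10.8%). In the Clu pair its share was 29.2% and 28.8% (27.96 to 30.5% and 27.5 to 30.1%).

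Markers of luminal subtypes also differed between the groups. The summed level of 15 proximal luminal markers was 1490 and 1417 CPM in the Nkx intact pair, 3985 and 5732 CPM after castration, and 9306 and 10485 CPM in the Clu pair. That of 15 distal secretory markers was 18287 and 22649 CPM, 4877 and 5892 CPM, and 11483 and 10155 CPM in the same order. Summed over 12 genes, endothelial marker RNA reached 1227 and 503 CPM in the Clu pair and between 62.1 and 545 CPM in the Nkx libraries. Their part in the Gsta3 and Gsta4 differences was not tested.

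The mu, pi and omega transferases were not called in any comparison with the low count filter and all 6 libraries. Without that filter Gstm2 (log2 fold change -0.72; edgeR adjusted p = 0.0142) and Gsto1 (-0.87; edgeR adjusted p = 0.00465) were called lower with castration, and Gsto1 higher in Clu intact than in Nkx castrate (1.46; edgeR adjusted p = 5.89e-08). Gstm1, a mu-class enzyme active on many epoxides, was at 168 and 114 CPM in the Nkx intact pair, 100.1 and 159.7 CPM after castration, and 104 and 87.8 CPM in the Clu pair. The castrate and Nkx intact libraries overlapped, and its log2 fold change with castration was -0.12 (95% interval -0.75 to 0.52; edgeR adjusted p = 0.858). Gstm2, a related mu-class enzyme, was at 137 and 160.4 CPM, 56.1 and 125 CPM, and 108 and 127 CPM in the same order. Its low value came from Nkx castrate 1, and without Nkx castrate 2, which leaves that library alone in its group, Gstm2 was called lower with castration (log2 fold change -1.42; edgeR adjusted p = 0.000999; 0.605 at most over the fits that left out a library) and higher in Clu intact (1.08; edgeR adjusted p = 0.00265; up to 0.806). Gstm1 was called lower in Clu intact than in Nkx castrate without Nkx castrate 1 (log2 fold change -0.73; edgeR adjusted p = 0.0338; up to 0.901). Of the 50-base windows of Gstm1, 18.9% occurred in another gene (most in Gstm2-ps1 and Gstm3), against 5.65% for Gstm2, so counts of the mu genes are less certain than those of the alpha genes.

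Gstp1, the pi-class enzyme, was at 31.9 and 31.7 CPM in the Nkx intact pair, 21.0 and 18.04 CPM after castration, and 22.7 and 31.7 CPM in the Clu pair. The castrate libraries lay below the other 4, with a log2 fold change of -0.70 from Nkx intact (95% interval -1.29 to -0.12) that did not pass adjustment (edgeR adjusted p = 0.145). Its neighbour in sequence Gstp2 was at 1.18 to 6.42 CPM and shares 33.7% of the 50-base windows of Gstp1. Gsto1, the omega-class enzyme with a thioltransferase-type active site, was at 64.9 and 80.3 CPM in the Nkx intact pair and at 88.4 and 129 CPM in the Clu pair. After castration it was at 65.8 CPM in library 1 and 13.8 CPM in library 2, so 1 castrate library lay at the Nkx intact level and the other below every other library. The log2 fold change with castration was -0.86 (95% interval -2.22 to 0.49; edgeR adjusted p = 0.433), became -2.40 without Nkx castrate 1 (edgeR adjusted p = 0.000123) and was -0.15 without Nkx castrate 2 (edgeR adjusted p = 0.744). Between Clu intact and Nkx castrate it was 1.45, with 2.98 and 0.73 in those fits (edgeR adjusted p = 0.136, 1.81e-05 and 0.0538). Nkx castrate 1 was also the library with the most leukocyte and stromal marker RNA, whose part in the Gsto1 level was not tested.

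Gpx3, the secreted plasma-type peroxidase, rose with castration. It was at 301 and 273 CPM in the Nkx intact pair, 2814 and 3859.6 CPM after castration, and 528 and 1609 CPM in the Clu pair. The 3 groups did not overlap, and the Clu libraries lay further apart, relative to their mean, than those of either Nkx group. The rise with castration was 11.6-fold (log2 3.54, SE 0.45; edgeR quasi-likelihood, adjusted p = 0.00598). It was as large without Nkx castrate 1 (log2 3.75; edgeR adjusted p = 6.11e-05), and the call was lost without Nkx intact 1 (3.60; edgeR adjusted p = 0.0741) or Nkx intact 2 (3.47; edgeR adjusted p = 0.0984). Clu intact was 3.72-fold above Nkx intact (log2 1.90, SE 0.45; edgeR adjusted p = 0.0367) and 3.12-fold below Nkx castrate (log2 -1.64, SE 0.44; edgeR adjusted p = 0.045). Against Nkx intact the log2 value was 0.89 without Clu intact 2 (edgeR adjusted p = 0.155) and 2.50 without Clu intact 1, and the call was also lost without Nkx intact 1 or Nkx intact 2 (1.98 and 1.83; edgeR adjusted p = 0.208 and 0.236). Against Nkx castrate it was -1.03 without Clu intact 1 (edgeR adjusted p = 0.0884) and -2.63 without Clu intact 2, and the call was lost too without Nkx intact 1 or Nkx intact 2 (-1.62 and -1.63; edgeR adjusted p = 0.101 and 0.102). No 50-base window of Gpx3 occurred in another gene. The 9 urothelial markers, summed, were also highest in Nkx castrate (1137 and 1522 CPM, against 250 to 552 CPM elsewhere), and their part in the Gpx3 level was not tested.

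Gpx1, the cytosolic and mitochondrial peroxidase, moved the opposite way. It was at 203 and 250.1 CPM in the Nkx intact pair, 97.2 and 88.7 CPM after castration, and 161 and 184 CPM in the Clu pair. No 2 groups overlapped. Gpx1 fell 2.44-fold with castration (log2 -1.29, SE 0.18; edgeR quasi-likelihood, adjusted p = 0.00622) and was 1.86-fold higher in Clu intact than in Nkx castrate (log2 0.89, SE 0.18; edgeR adjusted p = 0.0138). Between Clu intact and Nkx intact the log2 difference was -0.39 (95% interval -0.81 to 0.02; edgeR adjusted p = 0.212). The castration call was lost without Nkx intact 2 (-1.13; edgeR adjusted p = 0.0801), and the other without Clu intact 1 or Clu intact 2 (1.01 and 0.82; edgeR adjusted p = 0.0566 and 0.133). The summed distal secretory markers given above had the same order of groups, highest in Nkx intact and lowest in Nkx castrate, and their part in the Gpx1 level was not tested.

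Gpx4, which reduces hydroperoxides inside membranes and guards against ferroptosis, varied least. It was at 100.1 and 108 CPM in the Nkx intact pair, 97.5 and 82.2 CPM after castration, and 124 and 116 CPM in the Clu pair. The groups did not overlap, but no difference was called. The widest was between Clu intact and Nkx castrate (log2 0.42, 95% interval 0.02 to 0.82; edgeR adjusted p = 0.135), and with castration the interval ran from -0.61 to 0.19. Of the 50-base windows of Gpx4, 34.7% are shared, nearly all with the pseudogene Gpx4-ps2.

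Gpx2, a peroxidase best known from the epithelium of the gut, was near the lower end of detection. The Nkx intact pair held 6 and 8 counts (0.574 and 0.79 CPM), the castrate pair 64 and 6 (3.59 and 0.444 CPM), and the Clu pair 210 and 112 (17.7 and 10.5 CPM). Both Clu libraries were above all others, and the castrate libraries lay on either side of the Nkx intact ones. Of its 50-base windows, 6.03% occur in another gene, most in Gpx2-ps1. Clu intact exceeded Nkx intact 20.5-fold (log2 4.35, SE 0.92; edgeR quasi-likelihood, adjusted p = 0.0274), a call lost without Nkx intact 1, Nkx intact 2, Clu intact 1 or Clu intact 2 (log2 values from 3.94 to 4.69; edgeR adjusted p from 0.0727 to 0.195). The difference from Nkx castrate was not called (log2 2.78, 95% interval 0.87 to 4.70; edgeR adjusted p = 0.0647), and was called by DESeq2 (adjusted p = 0.0131), by limma-voom (0.0403), without the low count filter (edgeR adjusted p = 0.000317), without Nkx castrate 1 (4.96; edgeR adjusted p = 0.000562) and without Nkx castrate 2 (1.98; edgeR adjusted p = 0.0282). With castration the log2 fold change was 1.57 over both libraries, -0.61 without Nkx castrate 1, and 2.37 without Nkx castrate 2, where it was called (edgeR adjusted p = 0.0217; up to 0.671). Endothelial marker RNA was likewise highest in Clu intact 1 and higher in Nkx castrate 1 than in Nkx castrate 2, with sums of 99.1 and 62.1 CPM in the Nkx intact pair, 545 and 79.0 CPM after castration, and 1227 and 503 CPM in the Clu pair, and its part in the Gpx2 level was not tested.

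**Figure D2:**
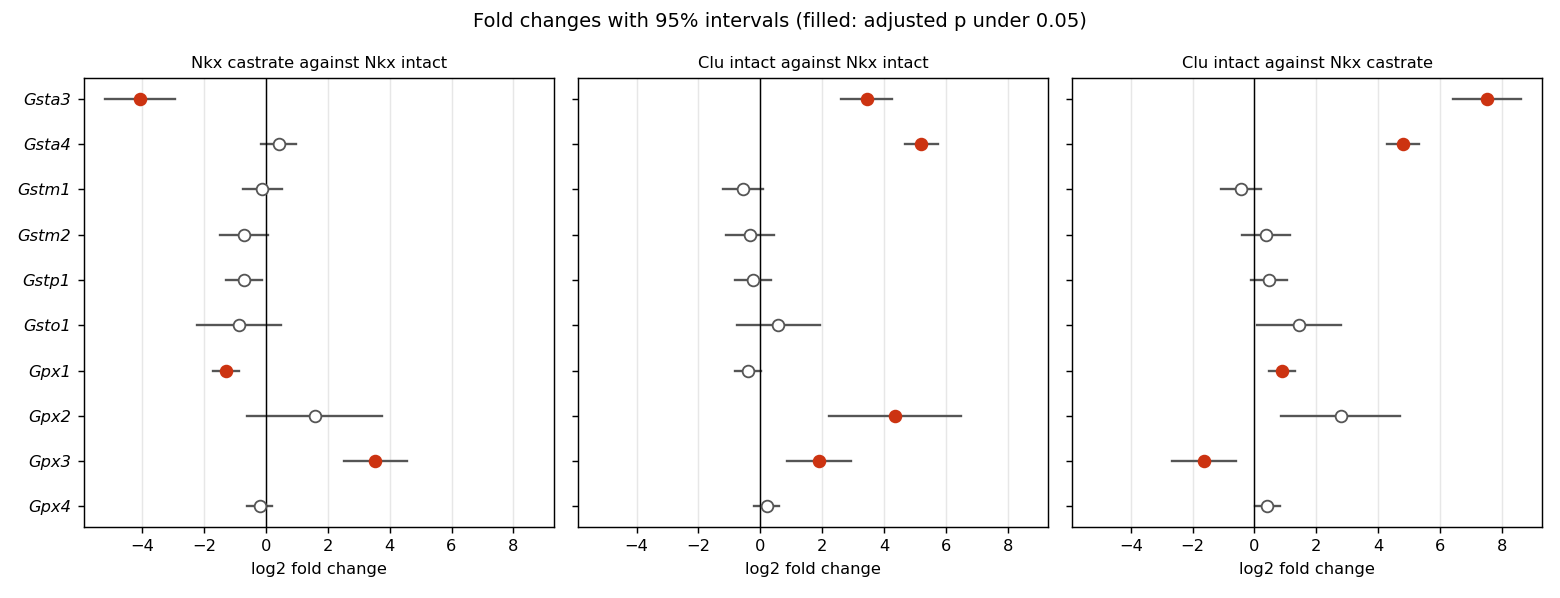
Log2 fold change of each of the 10 genes in the 3 comparisons, with 95% intervals from the fit over all 6 libraries; filled points passed an adjusted p of 0.05. Gsta3 lies at -4.08 after castration and at 7.52 in Clu intact against Nkx castrate, and Gsta4 is near 5 in both Clu comparisons.

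Counted over the list, castration raised 1 of the 10 genes (Gpx3) and lowered 2 (Gsta3 and Gpx1), against 4.02% of all tested genes called higher and 4.59% called lower. Clu intact exceeded Nkx intact in 4 genes (Gsta3, Gsta4, Gpx2 and Gpx3), where the share of all genes called higher was 6.29%. The number called lower there was 0, by edgeR, by DESeq2, by limma-voom and at an unadjusted p under 0.05, against 5.0% of all genes. Clu intact exceeded Nkx castrate in 3 genes (Gsta3, Gsta4 and Gpx1) and was below it in 1 (Gpx3), against 8.82% and 8.10% of all genes. Groups without overlap were common in these small groups. They occurred for 1 gene upward and 5 downward with castration (25.4% and 24.6% of all genes), 6 and 4 between Clu intact and Nkx intact (31.9% and 31.3%), and 7 and 1 between Clu intact and Nkx castrate (31.5% and 30.0%). The median log2 fold changes of the 10 genes were -0.46, 0.40 and 0.68 in that order, beside 0.05, -0.01 and 0.00 for all tested genes. The comparisons share libraries pairwise, so their values are not independent.

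Between genes, levels were compared as CPM per kilobase of annotated exon (GENCODE M21). In Nkx intact Gpx3 (158 ± 10.8, SD, n = 2) and Gpx1 (157 ± 22.9) stood level, above Gstm1 (95.5 ± 26.1), Gstm2 (88.7 ± 9.66) and Gpx4 (60.4 ± 3.28). The alpha class was low there, with Gsta4 at 6.69 ± 1.35 and Gsta3 at 2.73 ± 0.0302 CPM per kilobase. On the median length of coding transcripts the order of these 2 genes in Nkx intact reverses (Gsta3 13.3, Gsta4 9.85 CPM per kilobase). On that length Gpx3 (346) also stood above Gpx1 (288) in Nkx intact. In Nkx castrate Gpx3 reached 1840 ± 408 CPM per kilobase, while the group mean of each of the other 9 genes was at or below 88.2. That highest mean was of Gstm1, at 67.9 and 108 in Nkx castrate 1 and 2. On the median length of coding transcripts the Nkx castrate means of Gpx3 and Gstm1 were 4025 and 147. In Clu intact Gpx3 (590 ± 422) and Gsta4 (248 ± 18.2) led, with Gsta4 above Gpx1 (119.7 ± 11.3) in both libraries. Gsta3 and Gpx2 have long annotated exon sets (4344 and 3222 bases), and on the median length of their coding transcripts (894 and 1067 bases) Gsta3 in Clu intact rises from 29.6 to 144 CPM per kilobase, from below Gsto1 (53.8) to just above it (139). Together the 10 genes summed to 1026 and 1040 CPM in the Nkx intact pair, 3265 and 4362 CPM after castration, and 1576 and 2761 CPM in the Clu pair. Without Gpx3 the sums were 725 and 767, 451 and 502, and 1048 and 1152 CPM, so the castrate group was lowest rather than highest.

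**Figure D3:**
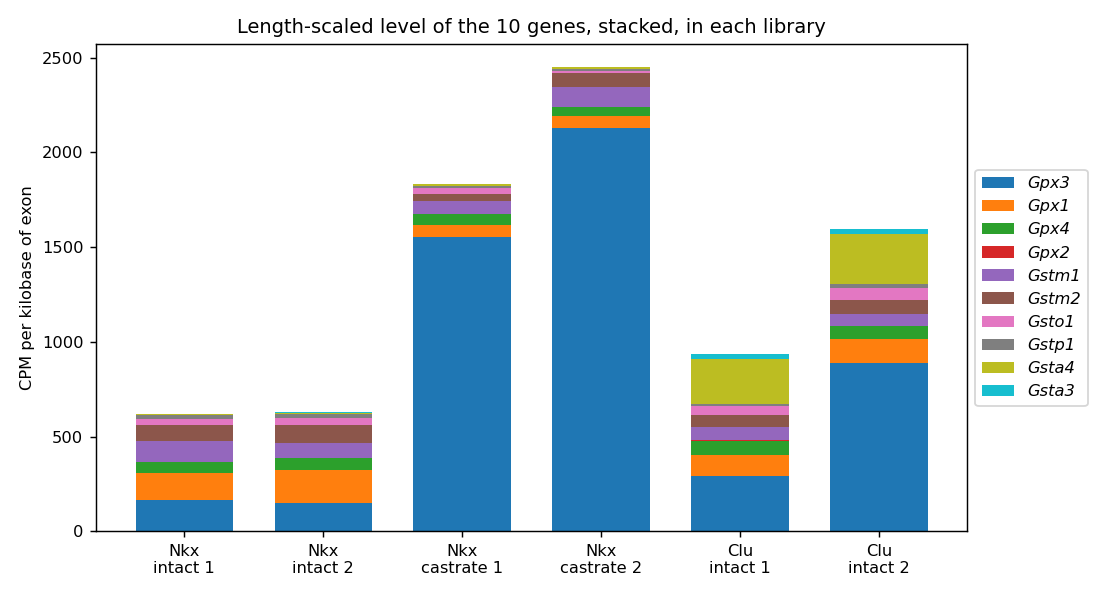
Stacked CPM per kilobase of exon of the 10 genes in each library. Gpx3 fills most of the Nkx castrate bars, which total 1832 and 2450.2, and Gsta4 is a visible band in the Clu intact bars, which total 938 and 1598.

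The genes whose profiles over the 6 libraries lay closest to those of the 3 most variable members were searched among about 9030 genes with a mean of at least 10 CPM, by Euclidean distance between log2 CPM profiles centred on their means. For Gsta3 they were Abo, a blood group glycosyltransferase (distance 1.47), Ripply3, a transcriptional corepressor (2.11), and B4galnt2, another glycosyltransferase (2.17). For Gsta4 they were Muc20, a membrane mucin (0.71), F5, coagulation factor V (0.75), and Gldc, a glycine decarboxylase subunit (1.05). For Gpx2 they were Mmrn2 (0.72) and Ptprb (0.76), both known from endothelium, and the elastic fibre gene Fbln5 (0.77). Mmrn2 was at 6.50 and 6.12 CPM in the Nkx intact pair, 36.7 and 4.73 CPM after castration, and 144 and 57.1 CPM in the Clu pair, with the same ranking of libraries as Gpx2 except within Nkx intact.

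Of 27 further transferase and peroxidase genes 17 were tested, and 0 were called with castration by edgeR (8.61% of all tested genes). At an unadjusted p under 0.05, 2 were higher and 1 lower, while DESeq2 called 1 lower and limma-voom 0. Without the low count filter edgeR called 1 higher. Without Nkx castrate 1 the castration calls were 3 higher, and without Nkx castrate 2 they were 2 lower. In Clu intact against Nkx intact 2 rose and 1 fell (6.29% and 5.0% of all tested genes). Against Nkx castrate 3 rose and 1 fell (8.82% and 8.10% of all tested genes). The membrane-bound transferase Mgst1 went from 20.8 ± 0.0783 CPM in Nkx intact to 57.8 ± 10.9 CPM (SD, n = 2) in Clu intact (log2 1.47, SE 0.37; edgeR adjusted p = 0.0454). Limma-voom did not call that Mgst1 difference (limma-voom adjusted p = 0.0667). Gpx8, a peroxidase of the endoplasmic reticulum, was 2.76-fold above Nkx intact and 3.35-fold above Nkx castrate, and Mgst3 and the mitochondrial Gstk1 were 3.14-fold and 2.43-fold above Nkx castrate. The median log2 fold changes were 0.46 with castration, 0.51 and 0.02. Between Clu intact and Nkx intact the edgeR calls were 6 higher and 2 lower without either castrate library and 0 without any 1 of the Nkx intact or Clu intact libraries, where Mgst1 and Gpx8 lost their calls (edgeR adjusted p up to 0.236 and 0.288). Against Nkx castrate the number higher ranged from 1 (without Clu intact 2) to 5 (without Nkx castrate 2), and Gpx8 was not called without Clu intact 2 (edgeR adjusted p = 0.141) and Gstk1 without either Clu library (up to 0.227).

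Of 26 genes of glutathione synthesis, recycling and breakdown, all tested, castration raised 1 (Anpep) and lowered 1 (Chac1), beside 4.02% and 4.59% of all tested genes. Anpep, an aminopeptidase that completes extracellular glutathione breakdown, went from 36.5 ± 2.55 to 707 ± 443 CPM with castration (log2 4.27, SE 0.40; edgeR adjusted p = 0.00221; 3.42 without Nkx castrate 2) and was at 548 ± 114 CPM in Clu intact (SD, n = 2). Chac1, which cleaves glutathione inside the cell, fell from 32.8 ± 11.9 to 6.37 ± 2.11 CPM (log2 -2.36, SE 0.38; edgeR adjusted p = 0.0107), a call lost without Nkx intact 2 (edgeR adjusted p = 0.103). Clu intact was higher than Nkx intact in 1 gene and lower in 3 (6.29% and 5.0% of all tested genes). Those lower included the glutathione hydrolase Ggt1 (2.77-fold) and Slc3a2, the heavy chain of the cystine carrier (2.42-fold). Against Nkx castrate 1 was higher (Chac1, 3.75-fold) and 3 were lower (8.82% and 8.10% of all tested genes). Cbs, a transsulfuration enzyme, was 7.04-fold and Ggct 3.11-fold lower. Chac1 was not called there without Clu intact 2, nor Ggct without either Clu library, and Ggt1 and Slc3a2 lost their calls against Nkx intact without Nkx intact 1, Ggt1 also without Nkx intact 2 or Clu intact 1 and Slc3a2 without Clu intact 2 (edgeR adjusted p of up to 0.103, 0.117, 0.138 and 0.0665). Leaving out 1 library gave 1 to 3 higher (3 without Nkx castrate 1) and 0 to 2 lower with castration (0 without Nkx intact 2, 2 without Nkx castrate 2). Against Nkx intact it gave 1 to 4 higher and 0 to 5 lower, with 4 and 5 without either castrate library and at most 1 each way without any 1 of the others. Against Nkx castrate it gave 0 to 3 higher and 1 to 6 lower, with 2 and 6 where Nkx castrate 1 was dropped, 3 each way where Nkx castrate 2 was, and 1 lower without either Clu library. The synthesis genes Gclc and Gclm and the reductase Gsr, chosen after their values were seen, were not called in any comparison.

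Among 20 genes of the thioredoxin, peroxiredoxin, catalase and superoxide dismutase systems, castration raised 1 and lowered 2 (4.02% and 4.59% of all tested genes). Prdx6, a peroxiredoxin that draws on glutathione, fell from 2486 ± 258 to 302 ± 61.1 CPM (SD, n = 2; log2 -3.04, SE 0.25; edgeR adjusted p = 0.00122). Srxn1, which repairs over-oxidised peroxiredoxins, went from 23.9 ± 2.12 to 75.4 ± 2.14 CPM (log2 1.66, SE 0.23; edgeR adjusted p = 0.00614), and Sesn1 fell 4.05-fold. Clu intact exceeded Nkx intact in 5 genes and was lower in 2 (6.29% and 5.0% of all tested genes). It exceeded Nkx castrate in 6 and was lower in 0 by edgeR (8.82% and 8.10% of all tested genes). There 1 was lower at an unadjusted p under 0.05, 1 by DESeq2 and 0 by limma-voom. EdgeR also called 1 lower with upper-quartile scaling, without the low count filter, with a filter of 1 CPM in 4 libraries, and with halved counts. Cat, the gene of catalase, was 5.12-fold higher in Clu intact than in Nkx intact and 2.77-fold higher than in Nkx castrate, and Txnip, a thioredoxin inhibitor, 4.76-fold and 4.07-fold. Prdx6 in Clu intact lay 2.83-fold below Nkx intact and 2.90-fold above Nkx castrate. Srxn1 lost its castration call without Nkx intact 1 or Nkx intact 2 (edgeR adjusted p up to 0.0733), and Sesn1 lost it without Nkx intact 1 (log2 -1.27; edgeR adjusted p = 0.251) or either Clu library (up to 0.0598). Against Nkx intact, Cat was not called without Nkx intact 1 (edgeR adjusted p = 0.0638), Sesn1 (3.84-fold lower in Clu intact) was not called without Nkx intact 1 or either Clu library (up to 0.274), and the log2 value of Txnip was 2.90 without Nkx intact 1. Cat lost its call against Nkx castrate without either Clu library (up to 0.111). Limma-voom over all 6 libraries did not call Sesn1 with castration (limma-voom adjusted p = 0.0607) or between Clu intact and Nkx intact (0.0813). Fitting only the 2 groups compared also ended its castration call (edgeR adjusted p = 0.0711). The counts over this list also moved when 1 library was left out. With castration 0 to 3 were higher and 1 to 8 lower, the 8 without Nkx castrate 2, 3 each way without Nkx castrate 1, and 0 higher without either Nkx intact library. Clu intact exceeded Nkx intact in 1 (without Nkx intact 1) to 6 genes (without either castrate library), with 2 without Nkx intact 2 and 3 without Clu intact 1, and was lower in 0 to 3. It exceeded Nkx castrate in 2 (without Clu intact 2) to 10 genes (without Nkx castrate 2), and was lower in up to 2 (without Nkx castrate 1).

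Of 23 NRF2 regulators and targets, 0 were called with castration by edgeR, beside 8.61% of all tested genes. At an unadjusted p under 0.05, 4 were higher and 3 lower, with 1 and 2 by DESeq2 and 0 and 1 by limma-voom. Without the low count filter edgeR called 3 higher and 2 lower, and with the replicate number as a block 0 and 1. Without Nkx castrate 1 the castration calls were 2 higher and 4 lower, and without Nkx castrate 2 they were 1 each way. In Clu intact, 2 were higher and 4 lower than in Nkx intact (6.29% and 5.0% of all tested genes), and 2 higher and 5 lower than in Nkx castrate (8.82% and 8.10%). Leaving out 1 library gave 0 to 6 higher and 2 to 5 lower against Nkx intact, with 6 and 5 without either castrate library and 0 higher without any 1 of the others. Against Nkx castrate it gave 0 to 5 higher and 3 to 7 lower, with 5 and 7 where Nkx castrate 2 was dropped, 4 higher where Nkx castrate 1 was, and 0 and 3 without Clu intact 2. Those that fell included small MAF genes, whose proteins pair with NRF2. Maff was 4.25-fold and 2.68-fold lower than in Nkx intact and Nkx castrate, Mafk was 3.02-fold lower than in Nkx castrate, and the stress-induced target Osgin1 was 3.19-fold and 3.84-fold lower. Nfe2l2 itself, the gene of NRF2, named after its values were seen, was at 176 ± 2.42 CPM in Nkx intact, 184 ± 7.06 in Nkx castrate and 83.9 ± 0.973 in Clu intact (SD, n = 2; edgeR adjusted p = 0.00499 and 0.00305 against the Nkx groups). Its call against Nkx intact was lost without any 1 of the Nkx intact or Clu intact libraries (edgeR adjusted p up to 0.0721), and that against Nkx castrate without Clu intact 2 (0.0537). Me1, an NADPH-making enzyme, was 2.48-fold higher in Clu intact than in Nkx intact, a call lost without any 1 of the Nkx intact or Clu intact libraries (edgeR adjusted p up to 0.115).

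The selenium and selenoprotein list held 20 tested genes. With castration 3 fell and 0 rose by edgeR, beside 4.59% and 4.02% of all tested genes. At an unadjusted p under 0.05, 2 rose, while 0 rose by DESeq2 and by limma-voom. Without the low count filter 2 rose by edgeR. All 3 that fell are selenoproteins of the endoplasmic reticulum. Selenof went from 240.5 ± 19.4 to 97.0 ± 18.5 CPM (SD, n = 2; log2 -1.31, SE 0.19; edgeR adjusted p = 0.00667), Selenos fell 2.53-fold and Selenok 1.92-fold. Between Clu intact and Nkx intact 0 were called, beside 11.3% of all tested genes. At an unadjusted p under 0.05, 3 were higher and 1 lower, while DESeq2 called 1 lower and limma-voom 0. Without the low count filter, or fitting only these 2 groups, edgeR called 3 higher and 1 lower. With upper-quartile scaling or the replicate number as a block it called 1 lower. Against Nkx castrate, 2 were higher (Selenof 2.32-fold and Selenos 2.08-fold) and 1 was lower, beside 8.82% and 8.10% of all tested genes. Fitting only the 2 groups compared ended the Selenos calls with castration and against Nkx castrate (edgeR adjusted p = 0.0543 and 0.0857). With castration 2 were higher without Nkx castrate 1. Against Nkx intact 3 were higher and 1 lower without either castrate library, and against Nkx castrate the number higher ranged from 1 (without either Clu or either Nkx intact library) to 6 (without Nkx castrate 2), with 3 without Nkx castrate 1 and 0 lower without either Clu library. The 3 castration calls were lost without Nkx intact 1 or Nkx intact 2 (edgeR adjusted p up to 0.0873 for Selenof, 0.21 for Selenos and 0.155 for Selenok), and Selenos lost its call against Nkx castrate without either Clu or either Nkx intact library (up to 0.232).

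**Figure D4:**
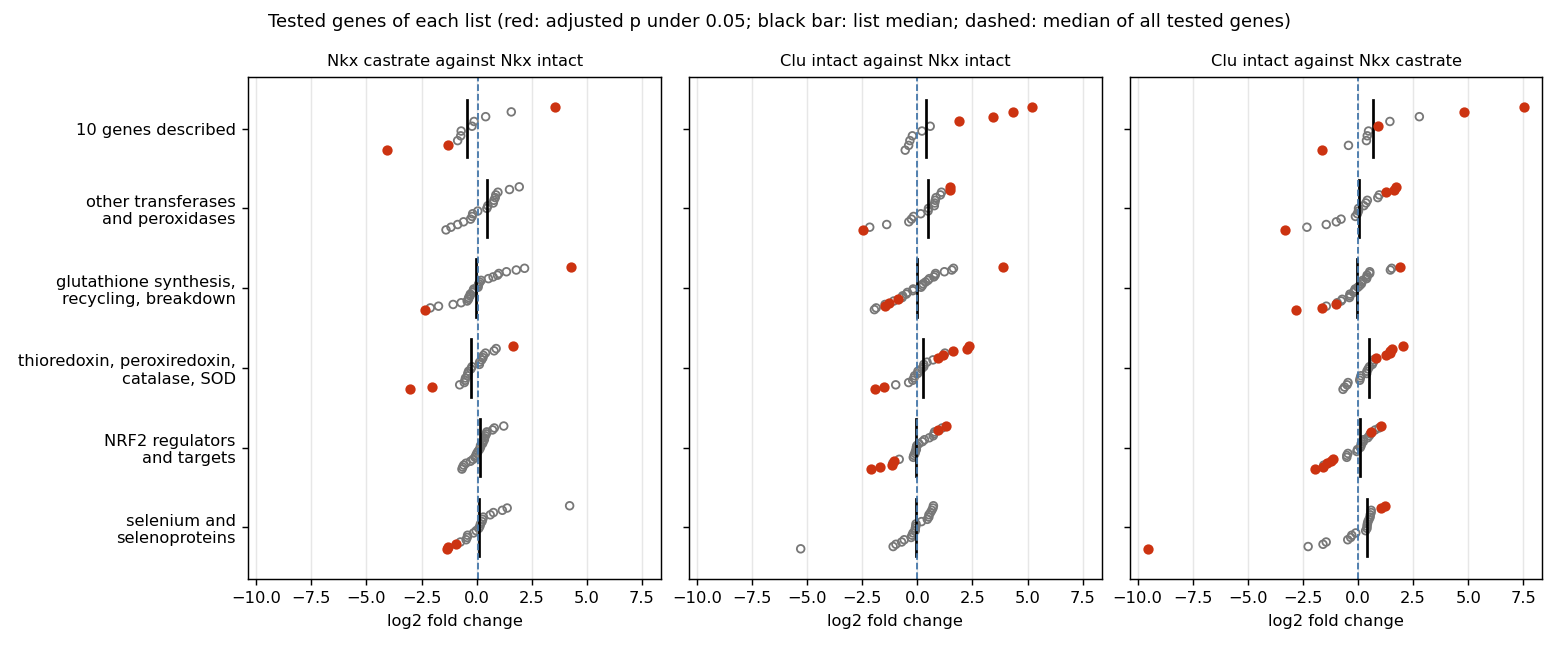
Log2 fold changes of the tested genes of the 10-gene list and of 5 lists of related redox genes in the 3 comparisons, with called genes filled, list medians as black bars and the median of all tested genes dashed. The list medians stay between -0.46 and 0.68 while single genes reach beyond 4 in either direction.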

How the data were processed

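The members and gene lists were chosen with earlier results of these data known. The deposited table holds whole-number counts by gene for 6 libraries, made from 2 ng of total RNA with a stranded low-input kit, per the labels. The submitters' processing notes name GRCm39, featureCounts, Subread 2.0.1, the aligner STAR 2.7.9a and FastQC 0.11.9. No source used here gives the annotation, the strand setting, or how mates and multiple alignments were handled. Between 75.1% and 82.2% of counts from 1 to 9 were even, so counting intervals, which cover counting error only, may be too narrow. In R 4.3.3, edgeR 4.0.16 filtered (filterByExpr, 13846 of 24498 genes kept), scaled by TMM (factors 0.945 to 1.04) and fitted all 6 libraries with a mean per group (3 residual degrees of freedom). Tests were two-sided quasi-likelihood F tests with Benjamini-Hochberg adjustment over all tested genes at 0.05. Replicate numbers were not paired. Related genes were named by rule: per list and comparison, up to 3 called genes with the largest fold, a mean of at least 10 CPM and groups without overlap. Alternatives were other scalings and filters, no abundant genes, DESeq2 1.42.0, limma-voom (limma 3.58.1), 2 groups only, a replicate block, summed families, halved counts (added after seeing the data) and leaving out each library. On simulated data with known changes the fit mostly recovered their direction, but called small changes far less often than large ones. The 5′ windows and exon lengths come from GRCm38.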

Additional observations from a re-analysis of the deposited data

How the results depend on the processing

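No alternative reversed a called member. The numbers of the 10 genes called higher and lower were 1 and 2 with castration, 4 and 0 in Clu intact against Nkx intact, and 3 and 1 in Clu intact against Nkx castrate. Leaving out the 50 most abundant genes, which include Gpx3, gave 0 higher with castration and 0 lower in Clu intact against Nkx castrate. Without the low count filter 4 were lower with castration (adding Gstm2 and Gsto1) and 5 higher in Clu intact against Nkx castrate (adding Gsto1 and Gpx2). Limma-voom called 2 higher in Clu intact against Nkx intact, losing Gpx2 and Gpx3, and both it and DESeq2 called 4 higher in Clu intact against Nkx castrate, adding Gpx2. Fitting only the 2 groups compared gave 0 lower in Clu intact against Nkx castrate. Over the fits that left out each library in turn, the counts ranged from 0 to 2 higher and 1 to 3 lower with castration, from 2 to 4 higher and 0 lower in Clu intact against Nkx intact, and from 2 to 5 higher and 0 to 2 lower in Clu intact against Nkx castrate; a group left with 1 library is assumed to vary like the others. Apart from the fits above that drop genes or samples, the cause was not tested. Summing the Gsta genes ended the castration call of Gsta3, a sum that holds mostly Gsta4 after castration. With the replicate number as a block, the calls were 1 higher and 2 lower, 4 and 0, and 4 and 1, again adding Gpx2 in Clu intact against Nkx castrate (edgeR adjusted p = 0.0288). The labels do not say whether same-numbered libraries shared a batch. The correlation of replicate differences across genes was 0.09, 0.04 and 0.23 in the order of the comparisons, which cannot decide it. Low counts limit Gpx2 in the Nkx groups and Gsta3 in Nkx castrate.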
